A study of Mus musculus with 25 samples.

Results

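The sparse megabases are the stretches of the mouse autosomes in which reduced representation bisulfite sequencing (RRBS) covered the fewest CpGs. The 19 autosomes were cut into bins of 1000000 bp on the mm9 build, and the bins with at least 50 CpG positions seen in any of the 25 libraries were ranked by that number. The lowest 20%, with ties at the cut of 356 positions, comprised 486 of 2413 megabases, and 4 further bins fell under the minimum. The ranking used only how many positions were covered. It used no methylation value, so methylation levels, differences between groups and the spacing of the CpGs could be examined in these regions.

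RRBS cuts DNA with a restriction enzyme and sequences fragments that are rich in CpGs after bisulfite conversion, which leaves methylated cytosines and converts the others. A CpG-poor region is therefore sampled thinly. Most CpGs outside CpG islands are methylated in mammalian cells, and after each replication the maintenance methyltransferase DNMT1 copies the marks to the new strand. Large gene-poor, late-replicating domains are known from other cell types to lose methylation gradually as cells divide, most of all at isolated CpGs. No replication timing, gene or repeat annotation on mm9 was used here, so that the sparse megabases are described by their CpG content and methylation alone.

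The cells were haematopoietic stem cells (HSCs), which renew themselves and form all blood lineages, from C57Bl/6 mice. The study asked how their methylation differs through life and after imposed proliferation. Libraries came from fetal liver at e14.5 (fetal, n = 2) and from the bone marrow of adult mice, either 3.5 months (young, n = 2) or 25 months old (old, n = 2). Bone marrow was also taken from mice aged 3.5 months plus 6 months that had received 0 (n = 3), 2 (n = 3) or 4 (n = 2) doses of 5-fluorouracil (5-FU), which kills dividing cells. The remaining libraries came from bone marrow after the transplantation of young HSCs, at 10 (n = 3), 50 (n = 1) or 500 (n = 1) cells, or of old HSCs, at 10 (n = 2), 50 (n = 1) or 500 (n = 3) cells. The labels give no age or time after transplantation for these groups, and do not say that replicates came from separate animals, so that the p-values measure the spread between these libraries, which may be technical. A methylation library holds no marker expression by which the cell type could be checked.

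The reads of a library, summed over its listed CpGs, came to 22835325 to 105187091, with a read counted at each CpG it covers. Reads per tile below are sums of the same kind. The median depth of a library over the CpGs of the sparse megabases used here was 13 to 86 reads. The 0-dose libraries stood apart in that their deepest CpG had 63841 to 74120 reads, below every other library. Without them the central comparisons below gave nearly the same values, as stated there.

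The sparse megabases held 85 to 356 CpG positions each (median 275.5), against a median of 773 in the other 1927 megabases. Together they held 130265 positions, 6.47% of all positions in the ranked megabases. Clusters of CpGs were rare in them: 389 of 27369 tiles of 1000 bp (1.42%) had 30 or more positions, against 5.42% elsewhere. Both counts use the positions by which the megabases were ranked. The low share of positions follows from that rule, and the scarcity of clusters is tied to it. Their share differed between chromosomes, from 13 of 121 megabases (10.7%) on chromosome 9 to 29 of 96 (30.2%) on chromosome 16, and chromosome 1 had the most, 52 of 194. They formed 268 runs of neighbouring bins. The longest run, 7 megabases at chr8:99000001-106000000, held 228 to 296 positions per megabase. The megabases with the fewest positions were chr12:121000001-122000000 with 85, in which the last listed position of the chromosome lies at 121238110, and chr12:90000001-91000000 with 93. At the cut, chr13:39000001-40000000 and chr11:56000001-57000000 lay just inside with 356 positions, and chr3:56000001-57000000 and chr3:70000001-71000000 just outside with 357. Levels of these last 4 in young cells were 78.3% and 80.2% inside and 85.6% and 87.7% outside. In all, 5 megabases tied at 356 positions, and the others stood at 88.8%, 69.0% and 86.0%, so the cut does not separate levels.

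Methylation in the sparse megabases was high in fetal and adult HSCs and lower after transplantation. Over the 40992 CpGs with at least 5 reads in all 25 libraries, the mean level was 80.8% and 81.0% in the fetal libraries, 78.5% and 79.6% in young, and 81.2% in both old libraries. After 10 young cells were transplanted it was 72.1%, 74.6% and 73.0%, and after 10 old cells 73.0% and 73.4%. Apart from the library from 50 old cells, at 73.8%, no other library was as low. The levels lay higher with more cells, at 75.8% after 50 and 78.3% after 500 young cells, and at 75.8%, 76.0% and 76.9% after 500 old cells. In the other megabases, which hold many unmethylated CpGs in clusters, the same libraries had mean levels of 33.5% to 38.9%.

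**Figure D1:**
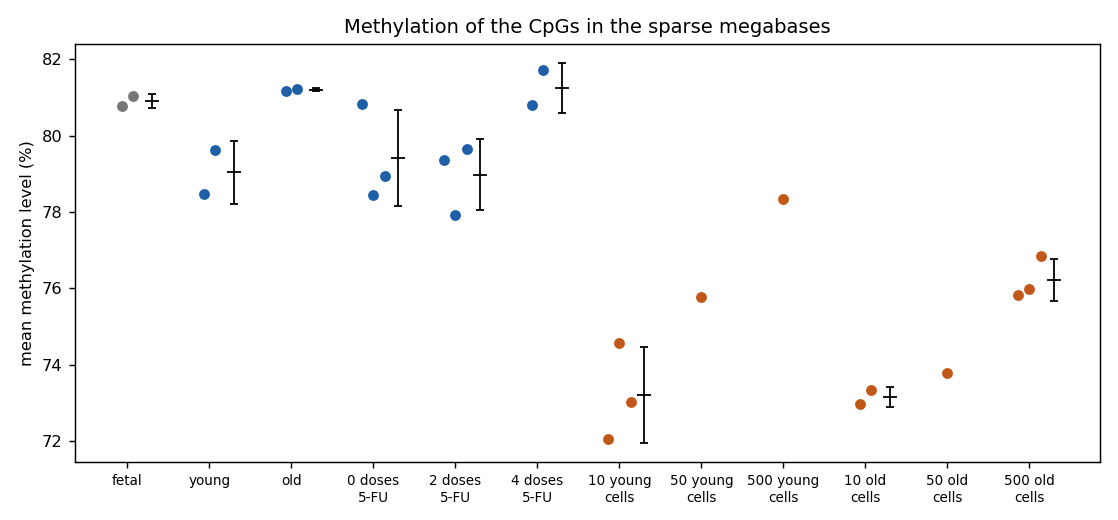
Mean methylation level (%) of the 40992 CpGs of the sparse megabases with at least 5 reads in every library, 1 point per library, by group, with mean and SD beside groups of 2 or 3 libraries. The axis does not start at 0. The 5 libraries from 10 transplanted cells sit between 72.1% and 74.6%, and the untransplanted bone marrow between 77.9% and 81.7%.

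The 11 transplanted libraries averaged 74.8% ± 1.93 (SD) and the 12 untransplanted bone marrow libraries 79.8% ± 1.27 (SD), a difference of -5.07 points (two-sided permutation test with 100000 resamples, p = 2e-05, the smallest they can give, and 0.00016 after Benjamini-Hochberg adjustment over 16 comparisons). The groups overlapped at 1 library, that from 500 young cells. Among young donors alone the difference from young and 0-dose libraries was -4.51 points (5 against 5 libraries without overlap, exact permutation p = 0.00794, adjusted 0.0317). That call was lost with 10 or more reads per CpG (-3.68 points) and with each read counted once (-1.07). In the latter setting, here and below, a read counts once at each CpG it covers. Without the 0-dose libraries (-4.50) or without the young libraries (-4.67), too few libraries remained for the test to pass the adjusted threshold. Among old donors it was -6.40 points without overlap, but 6 against 2 libraries cannot give an exact permutation p below 0.0714 (adjusted 0.163). Libraries from 10 cells differed from those from 500 cells by -3.56 points without overlap, which missed the threshold (exact permutation p = 0.0159, adjusted 0.0508). When each read rather than each CpG counted once, the difference between transplanted and untransplanted libraries was -2.62 points and missed the threshold (adjusted permutation p = 0.183). Without the 0-dose libraries it was -5.26 points.

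Neither 5-FU group differed from the 0-dose libraries beyond their spread in the sparse megabases. Their levels were 80.8%, 78.5% and 78.9% after 0 doses, 79.4%, 77.9% and 79.7% after 2 doses, and 80.8% and 81.7% after 4 doses. Both overlapped with 0 doses, whereas the 4-dose libraries lay above all 2-dose libraries, a difference that was not tested. The differences from 0 doses were -0.43 points for 2 doses (exact permutation p = 0.7, where 0.1 is the smallest possible) and 1.84 points for 4 doses (exact p = 0.4, smallest possible 0.2). The sign for 2 doses turned when each read counted once (2.98 points, exact p = 0.1, adjusted 0.229) and with 1 library left out (up to 0.269 points). Old exceeded young by 2.16 points without overlap, and 2 against 2 libraries cannot give an exact p below 0.333. When each read counted once, the difference was 3.16 points for 4 against 0 doses, 7.87 for old against young and -2.18 for 10 against 500 cells.

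Most of the level came from CpGs that were nearly fully methylated. Of the 40992 CpGs, 80.8% had a fetal level of 80% or more, 9.40% one between 20% and 80%, and 9.81% one under 20%, whereas 57.1% of CpGs elsewhere had a fetal level under 20%. The highly methylated CpGs averaged 92.4% in fetal, 89.9% in young, 91.9% in old, 83.1% after 10 young and 82.9% after 10 old cells. The CpGs low in fetal cells stayed low in all of these groups, at 1.59%, 2.72%, 3.99%, 3.48% and 3.99%. After transplantation from 10 young cells 53.5% to 63.2% of the CpGs had a level of at least 80%, against 74.4% and 75.8% in the young libraries.

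Sparse tiles differed from tiles with the same number of CpGs and the same fetal level elsewhere. For this comparison each of the 4377 sparse tiles of 1000 bp with at least 3 common CpGs was set against tiles of its class in other megabases, with 7 classes of CpG number and 10 of fetal level, and every sparse tile had such partners. In untransplanted bone marrow the sparse tiles lay slightly below their partners, by -0.34 points ± 0.33 (SD, n = 12), and in transplanted libraries slightly above, by 0.53 points ± 0.29 (SD, n = 11). From untransplanted to transplanted libraries the tile levels changed by -4.39 points in sparse megabases and by -5.26 in the partners. The difference of 0.868 points between these changes was larger than the spread between libraries (permutation p = 2e-05, the smallest possible, adjusted 0.00016). Over all CpGs, without classes, the change was -5.07 points in the sparse and -2.85 in the other megabases, the opposite order.

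**Figure D2:**
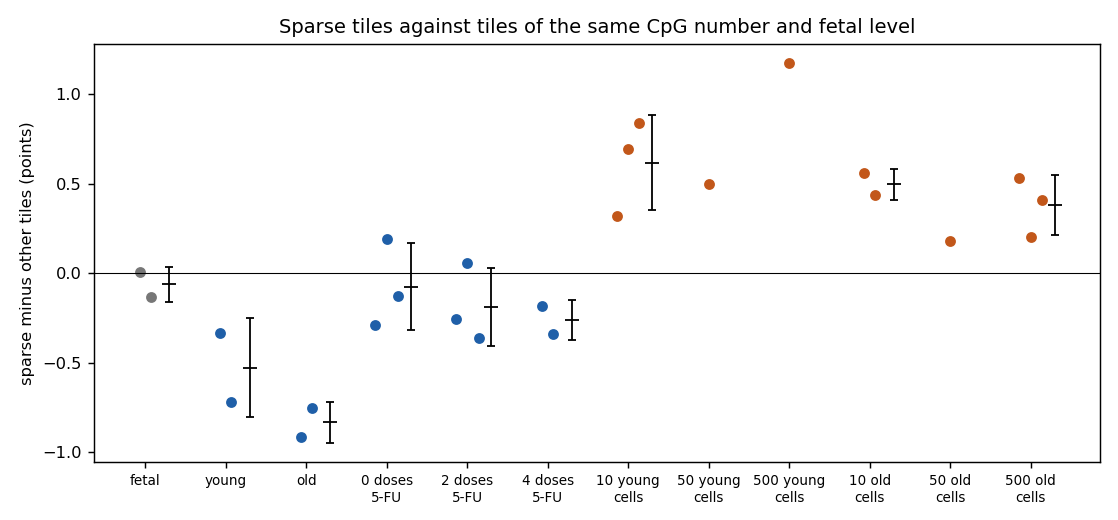
Mean level of sparse tiles minus that of other tiles in the same classes of CpG number and fetal level (percentage points), 1 point per library, with mean and SD beside groups of 2 or 3 libraries. All 11 transplanted libraries lie above 0, between 0.18 and 1.17 points, and the old libraries lie lowest at -0.91 and -0.75.

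The same direction was found for both donor ages. In young donors the sparse tiles lay 0.706 points above their partners after transplantation, against -0.256 in young and 0-dose libraries, without overlap (difference 0.962, exact permutation p = 0.00794, adjusted 0.0317). That call was lost in the lowest 10% of megabases (0.927) and with tiles of 1 or 2 CpGs added (0.572). Without the 0-dose libraries (0.974) or without the young libraries (0.790), too few libraries remained for the test to pass the adjusted threshold. In old donors the means were 0.387 and -0.832 (difference 1.22, exact p = 0.0714, the smallest possible). Libraries from 10 and 500 cells did not differ beyond their spread (difference -0.011, exact p = 0.968). When tiles of 1 or 2 CpGs were added, the difference between transplanted and untransplanted libraries fell to 0.446 points and missed the threshold (adjusted permutation p = 0.0635). Without the 0-dose libraries it was 0.815 points.

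At equal CpG number and fetal level, the fall was deeper in denser megabases. The megabases were divided by their number of positions into 5 groups of 20%. With the tiles of each group weighted to the classes of the sparse tiles, 10 young cells against young differed by -4.96 points in the sparsest group and by -5.32, -5.74, -6.35 and -6.84 in the following ones. For 10 old cells against old the values ran from -6.90 in the sparsest to -9.10 in the densest group, and for 500 old cells against old from -4.22 to -6.33. The order was the same in each of these comparisons, which share the young or old reference libraries within a donor age. The weighted reference levels were higher in the densest than in the sparsest group, at 80.7% against 79.8% in young and 83.3% against 81.8% in old. The levels were 73.9% against 74.8% after 10 young, 74.2% against 74.9% after 10 old and 77.0% against 77.6% after 500 old cells. Part of each gradient thus lies in the reference libraries. Without the weighting, the order was the opposite for 10 young cells, from -4.96 in the sparsest to -3.37 in the densest group, and for 10 old cells, from -6.90 to -5.25, while 500 old cells gave -4.22 and -4.04. The unweighted tiles had a mean fetal level of 81.6% in the sparsest and 38.5% in the densest group. In CpG-poor tiles alone, with under 10 CpGs and a fetal level of at least 80%, 10 young cells against young differed by -6.29 points in the sparsest and -8.50 in the densest group. Old against young, in the opposite direction, ran from 1.97 points in the sparsest to 2.54 in the densest group.

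**Figure D3:**
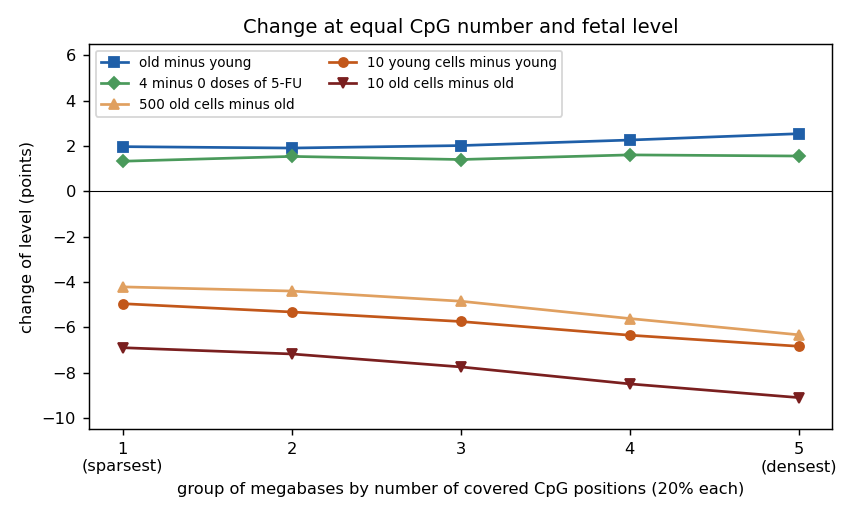
Difference between group means (percentage points) in 5 groups of megabases by number of covered CpG positions, each 20% of them, with tiles weighted to the CpG number and fetal level of the sparse tiles. The 3 transplantation comparisons lie lowest in the densest group, at -9.10 to -6.33 points, and old minus young lies between 1.91 and 2.54 points throughout.

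CpGs were also grouped by the distance to their nearest listed neighbour. Among CpGs with a fetal level of at least 80%, those in sparse megabases whose nearest listed position lay within 10 bp changed by -3.24 points from untransplanted to transplanted bone marrow libraries, and those elsewhere by -4.11. At 11 to 30 bp the changes were -5.16 and -6.25, and at 31 to 100 bp -8.28 and -9.12. At 101 bp or more they were -8.66 and -8.86, though CpGs that are not listed may lie closer. Over these pooled libraries the change was deepest at 101 bp or more in the sparse megabases, and at 31 to 100 bp elsewhere. Within donor age it was deepest at 101 bp or more in both parts. Elsewhere it was -11.8 points there against -11.4 at 31 to 100 bp for 10 young cells against young. The values were -14.3 against -13.4 for 10 old and -9.27 against -9.10 for 500 old cells against old. The difference between sparse and other megabases was 0.871, 1.09 and 0.836 points in the closer 3 classes (permutation p = 2e-05, 4e-05 and 0.00012, adjusted over 4 comparisons at most 0.00016). At 101 bp or more the difference was 0.201 points (permutation p = 0.0574). Whether this difference itself varied between the spacing classes was not tested, and these 4 comparisons were chosen after the data were seen.

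Nearly all sparse megabases took part in the fall. The mean level was lower after 10 young cells than in young in 481 of 486, after 10 old cells than in old in 485, and after 500 old cells than in old in all 486. All libraries of one group lay below all of the other in 463 (95.3%) for 10 young cells, where 95.4% of all megabases did so, in 485 (99.8%) for 10 old cells against 99.5% of all, and in 481 (99.0%) for 500 old cells against 98.5%. The sparse megabases are therefore not set apart by how many fell. The median difference was -6.28, -8.34 and -5.14 points, against -3.39, -5.04 and -3.50 in the other megabases, whose CpGs were less methylated to begin with. Old lay above young in 480 sparse megabases, and without overlap in 426 (87.7%, against 95.2% of all megabases).

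The largest fall after both 10-cell transplants was in chr11:39000001-40000000. Its 39 common CpGs averaged 91.4% in fetal, 88.9% and 90.7% in the young libraries and 91.0% and 91.6% in the old libraries. After 10 young cells the level was 77.5% ± 2.52 (SD, n = 3), and after 10 old cells 75.0% and 78.5%. The group differences were -12.3 and -14.6 points, with 88.6% after 500 young cells and 82.2% to 85.3% after 500 old cells. All 10-cell libraries lay below all libraries of their reference.

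Falls nearly as large were found elsewhere. For 10 young cells they were -11.2 points in chr2:117000001-118000000, -11.0 in chr4:29000001-30000000, -10.9 in chr1:195000001-196000000 and -10.8 in chr11:91000001-92000000. For 10 old cells they were -13.99 in chr1:195000001-196000000, -13.9 in chr14:90000001-91000000, -13.6 in chr1:49000001-50000000 and -13.3 in chr1:70000001-71000000. All of these megabases started at 84.0% to 91.0% in young cells. At the other end, chr16:98000001-99000000, the incomplete last megabase of its chromosome, was nearly unmethylated in every group, at 7.003% in old and 5.10% after 10 old cells. The levels in old and after 10 old cells were also close in chr8:39000001-40000000 (56.5% and 54.5%) and chr4:93000001-94000000 (47.7% and 45.4%).

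Across the 486 megabases, the difference after 10 young cells and that after 10 old cells, which share no library, had a Pearson r of 0.814 and a Spearman rho of 0.776. The megabases share libraries and CpG composition and are not independent replicates, so this describes the pattern only. Only 5 megabases lay higher after 10 young cells than in young. They included chr6:103000001-104000000 (84.0% against 79.6%), chr14:11000001-12000000 (82.2% against 78.3%), chr6:109000001-110000000 (80.7% against 78.8%) and chr12:26000001-27000000 (75.8% against 74.5%). In each of these the young libraries were low compared with fetal cells and with the 0-dose libraries. In chr6:103000001-104000000 both young libraries were at 79.5% and 79.6%, while fetal libraries were at 91.5% and 91.6%, old at 84.7% and 85.5%, and 0-dose libraries at 87.8% to 90.2%.

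**Figure D4:**
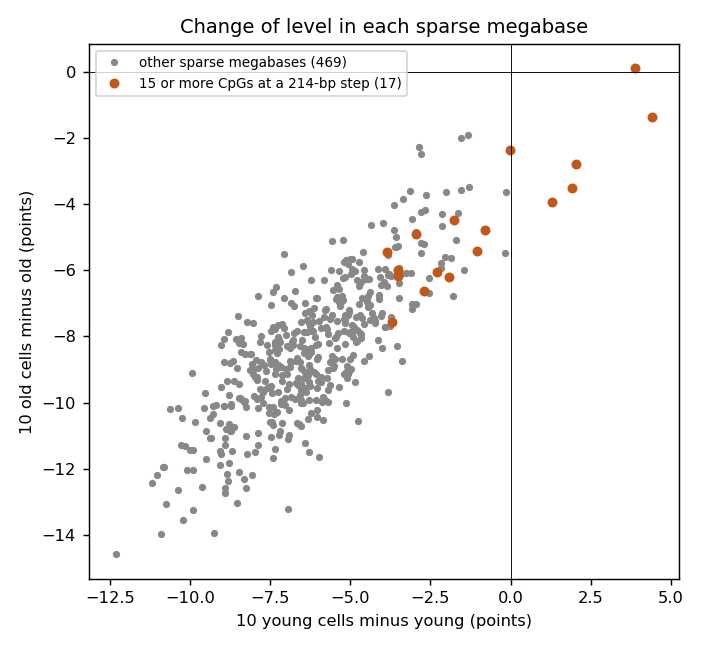
Difference of mean level (percentage points) in each of the 486 sparse megabases, 10 young cells minus young on the horizontal and 10 old cells minus old on the vertical axis. Coloured points are the 17 megabases with 15 or more common CpGs in runs with a step of 214 bp. Their medians were -1.76 and -4.89 points, against -6.34 and -8.48 in the other 469. The step was chosen for its low level in young against fetal libraries, and the young libraries are the reference on the horizontal axis.

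These exceptions held CpGs that recur at a fixed distance. Many positions of the sparse megabases lay in runs of at least 3 with equal steps. Among steps of 196 to 226 bp, 5882 positions recurred at 212 bp, 4153 at 208 bp, 1948 at 201 bp, 1154 at 214 bp, 792 at 206 bp and 466 at 215 bp, while each of the other 25 steps held 57 to 256 positions (median 85). Runs of 212 bp took 4.52% of positions in the sparse and 1.73% in the other megabases, runs of 208 bp 3.19% and 1.62%, and runs of 201 bp 1.495% and 0.999%. The shares were 0.886% and 0.719% at 214 bp, 0.608% and 0.737% at 206 bp, and 0.358% and 0.657% at 215 bp. The 2 parts have unlike backgrounds. Each of the other 25 steps held 0.0438% to 0.197% of positions in the sparse and 0.463% to 0.640% in the other megabases. All 6 steps stood above these ranges in both parts. Such periodic CpGs are a feature of tandem repeats, of which the promoters of mouse L1 retrotransposons are a textbook case. The runs were not assigned to a repeat family, since no repeat annotation on mm9 was used. The analysis of these runs was chosen after the data were seen, so their levels are given as a description without a test.

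The runs with different steps kept different levels. The 1970 common CpGs at a 208-bp step, in 168 megabases, behaved like the other highly methylated CpGs: they stood at 91.9% and 92.6% in the young libraries and at 85.0%, 86.7% and 86.1% after 10 young cells. The 2051 common CpGs at a 212-bp step, in 193 megabases, stood at 85.9% and 86.2% in young and at 85.6%, 87.2% and 86.1% after 10 young cells, so that these groups overlapped. In the old libraries the 212-bp runs were at 88.8% and 89.2%, and after 10 old cells at 86.4% and 86.8%. The highly methylated sparse CpGs outside all runs went from 89.3% and 90.7% in young to 81.1%, 84.1% and 82.3%, and from 92.0% in both old libraries to 82.2% and 82.3%.

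The 780 common CpGs at a 214-bp step, in 54 megabases, were lowest in young cells. They averaged 89.4% and 89.3% in fetal, 76.1% and 76.6% in young, 81.0% and 82.8% in old, and 86.6% to 88.3% after 0 doses. After 10 young cells they were at 80.2%, 83.6% and 81.9%, and after 10 old cells at 82.4% and 82.0%. The young libraries thus lay below all other libraries here, while at the 208-bp step they lay above all transplanted libraries. In chr6:103000001-104000000, 61 of 128 common CpGs had the 214-bp step, and in chr14:11000001-12000000 68 of 100. In the former the level was 73.9% at these CpGs and 84.8% at the others in young, against 89.4% and 88.0% after 0 doses.

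**Figure D5:**
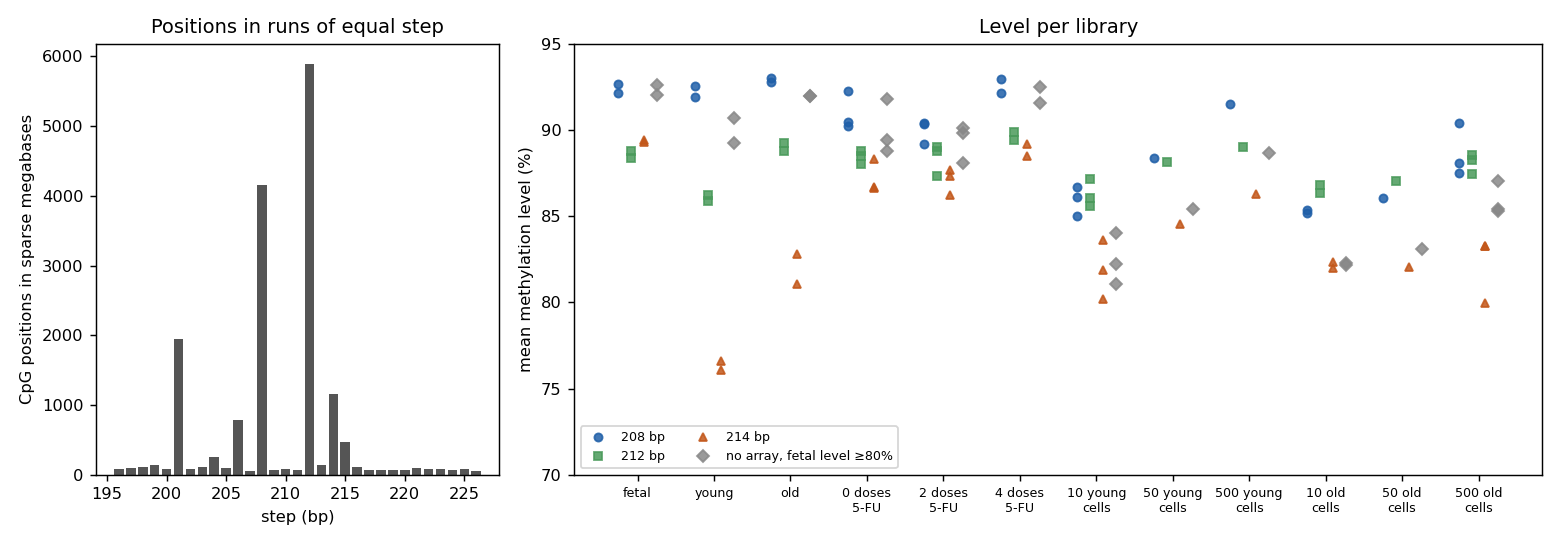
Left, number of CpG positions of the sparse megabases in runs of 3 or more at each equal step from 196 to 226 bp, with the highest bars at 212 and 208 bp. Right, mean methylation level (%) per library for common CpGs at steps of 208, 212 and 214 bp and for CpGs outside all runs with a fetal level of at least 80%, on an axis that does not start at 0; the young libraries stand at 76.1% and 76.6% at the 214-bp step.

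Read depth at the runs moved with the libraries. Relative to the median CpG of the sparse megabases in the same library, the median depth at the 208-bp step was 0.881 in fetal, 1.49 in young, 1.08 in old, 0.770 after 0 doses and 1.46 after 10 young cells, and at the 212-bp step 1.14, 0.680, 1.02, 1.14 and 0.826. At the 214-bp step it was 0.927 in young and 1.17 after 0 doses. The part of depth, and of reads placed among similar copies, in these levels was not tested. Without the CpGs of all 6 run types, the difference between transplanted and untransplanted libraries was -5.46 points for the level and 0.981 points for sparse tiles against their partners (adjusted permutation p = 0.00016 for both).

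At the level of tiles, losses far outnumbered gains after transplantation. Tiles of 1000 bp were tested with a quasi-binomial model with a mean per group, and called at an adjusted p under 0.05 (Benjamini-Hochberg over all autosomal tiles) with a difference of at least 10 points. For 10 young cells against young 1319 of 7560 sparse tiles lost methylation (17.4%), where 14.8% of all tested tiles did, and 42 gained (0.556% against 0.925%). For 10 old cells against old 1628 lost (21.5% against 20.4%) and 9 gained (0.119% against 0.501%). For 500 old cells against old 305 lost (4.03% against 5.99%) and 6 gained (0.0794% against 0.313%). In classes of equal CpG number and fetal level the other megabases lost in 19.6%, 27.0% and 7.23% of tiles, more than the sparse ones in each. The classes do not match depth, at a median of 174 reads per sparse and 212 per other tile, and its part in these shares was not tested. Of the sparse tiles lost after 10 young cells 50.5%, and of those lost after 10 old cells 40.9%, were the 666 tiles lost in both. The same shares over all tiles are not given here, so this sharing is not read as a trait of the sparse tiles.

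These counts rest on few libraries. For 10 young cells 0.408% of sparse tiles were called without the first and 0.0396% without the second young library, and a fit of only those groups called 0. For 10 old cells the share was 0% and 0.145% without the first and second old library and 2.19% and 7.76% without the first and second 10-cell library, against 21.7% with all. For 500 old cells it was 0% and 0.0132% without the old libraries, and 0.291% and 1.84% without the first and second 500-cell library, against 4.11%.

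The tiles that lost most after transplantation had high levels in the young or old reference libraries, and a loss of this size cannot occur from a low level. At chr5:61711001-61712000, with 4 CpGs, the young libraries were at 90.2% and 91.8% and the libraries from 10 young cells at 71.7%, 57.0% and 32.4% (difference -37.3 points, adjusted p = 0.0069 in the quasi-binomial fit). At chr16:6227001-6228000, with 3 CpGs, the old libraries were at 82.7% and 84.0% and those from 10 old cells at 39.5% and 37.5% (difference -44.9, adjusted p = 0.00291). The old libraries were high in this tile compared with fetal (55.8% and 58.8%), young (49.4% and 59.0%) and 0-dose libraries (45.5% to 59.5%). At chr12:44599001-44600000 the old libraries were at 81.3% and 80.8% and those from 10 old cells at 45.2% and 31.6% (difference -42.7, adjusted p = 0.00537). Tiles were named only where the groups did not overlap. The other largest losses were -35.9 to -33.8 points for 10 young cells, -44.1 to -42.1 for 10 old cells and -42.0 to -37.8 for 500 old cells.

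A tile on chromosome 12 was higher in every transplanted library. At chr12:42041001-42042000, with 3 CpGs, the fetal libraries were at 22.1% and 9.65%, young at 10.4% and 9.75%, and old at 25.8% and 20.7%. After 10 young cells the levels were 59.7%, 66.0% and 56.8%, and after 10 old cells 56.7% and 57.1%. After 500 cells they were 38.4% for young and 52.3%, 65.2% and 41.8% for old donors. The differences were 50.7, 33.6 and 29.9 points for 10 young, 10 old and 500 old cells (adjusted p = 0.000177, 0.00526 and 0.0069). All 11 transplanted libraries lay above the fetal, young and old libraries, and the 5-FU groups lay between 0% and 38.2%.

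The tile at chr7:124564001-124565000, with 4 CpGs, held the largest gain with old donors and lay higher after transplantation of young cells too. It was at 10.7% and 9.38% in the old libraries, 63.9% and 53.9% after 10 old cells, and 43.9%, 42.9% and 34.1% after 500 old cells (differences 48.9 and 30.3 points, adjusted p = 0.000908 and 0.00679). After 10 young cells it was at 26.5%, 53.6% and 47.7%, against 16.9% and 14.4% in young. The level was 46.7% after 50 and 29.5% after 500 young cells. The fetal libraries were at 28.7% and 35.3% in this tile, and the 4-dose libraries at 16.9% and 47.9%. The other largest gains after 10 young cells were at chr11:15073001-15074000, chr9:84777001-84778000, chr8:31821001-31822000 and chr12:46296001-46297000, by 30.4 to 36.8 points. In each of these 4 tiles both young libraries lay below the fetal, old and 0-dose libraries, at 23.5% and 23.8% in the first against 76.2% and 79.7% in fetal and 78.0% to 81.3% after 0 doses.

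Between fetal liver and young bone marrow, 310 of 8208 sparse tiles lost methylation (3.78%, against 3.82% of all tiles) and 28 gained (0.341%, against 1.90%). The largest loss was at chr7:85982001-85983000, with 3 CpGs, where the fetal libraries were at 74.9% and 65.8% and the young at 0.833% and 3.44% (difference -68.2 points, adjusted p = 2.29e-08 in the quasi-binomial fit). All other bone marrow libraries were at 18.6% or below there, so that the fetal libraries stood alone. The largest gain, 44.8 points, was at chr2:50996001-50997000 (fetal 33.2% and 43.7%, young 86.6% and 79.8%, adjusted p = 8.04e-06). The old libraries were at 93.1% and 89.1% in this tile, and the transplanted ones at 66.7% to 80.3%. Leaving out 1 of the 4 libraries called 1.15% to 2.36% of sparse tiles, against 4.12% with all.

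Between young and old, 130 sparse tiles gained (1.58%, against 3.29% of all tiles) and 7 lost (0.0853%, against 0.205%). In classes of equal CpG number and fetal level 2.63% of tiles elsewhere gained, at a median of 242 reads per tile against 215 in the sparse tiles. The 5 largest gains were 46.8 to 49.2 points. At chr8:103042001-103043000, with 3 CpGs, the young libraries were at 42.4% and 36.2% and the old at 91.4% and 85.3% (difference 49.0, adjusted p = 0.000327 in the quasi-binomial fit), while the fetal libraries were at 83.5% and 81.4% and the 0-dose libraries at 82.9% to 91.4%. The 0-dose mice were thus near old and fetal cells in this tile. The largest loss, -21.7 points, was at chr6:98926001-98927000 (young 86.8% and 84.7%, old 73.6% and 54.5%, adjusted p = 0.0103). Limma on log2 odds called 0 sparse tiles here, where 772 (9.41%, against 14.1% of all tiles) had an unadjusted p under 0.05 in the quasi-binomial fit. The share called was 1.67% with all libraries, 0.0243% and 0.473% without the first and second old library, and 0.465% without the first young library.

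In the 5-FU comparisons no sparse tile of 4647 passed the threshold in the quasi-binomial fit, where 0.0035% of all tiles gained and 0.00175% lost for 0 doses against young, 0.00175% lost and 0% gained for 2 against 0 doses, and 0% changed for 4 against 0 doses. An unadjusted p under 0.05 was found in 249 sparse tiles for 0 doses against young (5.36%, against 4.45% of all tiles). The counts were 110 for 2 against 0 doses (2.37%, against 3.59%) and 193 for 4 against 0 doses (4.15%, against 6.78%). Limma on log2 odds called 1 gained sparse tile for 0 doses against young, 11 gained and 10 lost for 2 against 0 doses, and 17 gained and 4 lost for 4 against 0 doses. The limma shares over all tiles are not given here, so these counts are not read as a trait of the sparse tiles. Median differences were 0.16, -0.69 and 1.29 points. The sparse tiles had a median of 184 reads per library in this fit, from 2 or 3 libraries per group.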

How the data were processed

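RRBS of HSCs was deposited as 1 file per library that lists CpG positions with the methylated and total reads. A score was also deposited by the authors, which on the files equals the methylated share of the reads times 1000, rounded down, and was not tested. Per the submitters' processing notes the build is mm9. How reads were aligned, filtered and called is not given in the sources used here, nor is the treatment of duplicates, and reads are not independent molecules.

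Members and lists were chosen with earlier results of these data known. CpGs needed 5 reads in every library compared (568553 on the autosomes for all 25). A level is the mean over CpGs. Libraries were compared with two-sided permutation tests, exact where a group had under 10 libraries. Tiles of 1000 bp with 3 or more CpGs were fitted with quasi-binomial models of fetal, young and old (6 libraries), young and 5-FU (10), and young, old and transplanted (15), with Williams weights for reads that vary together and limma's moderation of the dispersion. These left 3, 6 and 7 residual degrees of freedom. The model was also run on simulated tiles with the same spread between libraries in every tile and group. That run does not address how far the calls rest on single libraries. Where the text gives an adjusted p for a tile, it comes from the fits of the real libraries. Samples were grouped by their labels. Named were the megabases with the fewest positions and those at the cut, the longest run, the 5 largest and smallest falls after 10 young and after 10 old cells, and called tiles with the largest differences and no overlap. Chromosome 18 was counted but not named. Alternatives are given below. The software was Python 3.11.15 (numpy 2.4.6, scipy 1.17.1, pandas 2.3.3, matplotlib 3.10.9) and R 4.3.3 (limma 3.58.1).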

Additional observations from a re-analysis of the deposited data

How the results depend on the processing

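Of 680 recomputed values, 603 kept their direction and their side of the threshold or, for shares of called tiles, stayed within 1.5 times the value with all data. Both depth, at a median of 174 reads per sparse tile in the transplantation fit, and the number of libraries limit single tiles. Alternatives without CpG runs, 0-dose libraries, young libraries or first and last megabases, and those with classes by CpG spacing, were chosen after the data were seen. Except where a value or the construction shows it, the cause of a shift was not tested.

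For young-donor transplants against young and 0-dose libraries, the level difference missed the threshold with 10 or more reads (-3.68) and with each read counted once (-1.07). The difference between sparse and matched tiles missed it in the lowest 10% of megabases (0.927) and with tiles of 1 or more CpGs (0.572). Both also missed it without 0-dose libraries (-4.50 and 0.974) and without young libraries (-4.67 and 0.790), where too few libraries remained for the test to pass. For all transplanted against untransplanted libraries, each read counted once gave a level difference of -2.62, and tiles of 1 or more CpGs a difference from matched tiles of 0.446; both missed the threshold. The sign changed for 2 minus 0 doses in level with each read counted once (2.98), and for values near 0: in sparse against matched tiles, 10 minus 500 cells with 10 or more reads (0.260) and without CpG runs (0.0209), and, with tiles of 1 or more CpGs, 4 minus 0 doses (0.0261) and bone marrow minus fetal (0.0478).

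The share of sparse tiles called (percent) moved as follows. With tiles of 5 or more CpGs it was 7.12 for young against fetal, 0.248 for 0 doses against young, 9.63 for 10 young, 13.6 for 10 old and 2.16 for 500 old cells. With limma on log2 odds it was 1.06 for young against fetal, 0 for old against young, 0.0215, 0.452 and 0.452 for the 5-FU comparisons and 12.4 for 500 old cells. With only the groups compared in the fit it was 2.25 for young against fetal, 0.0651 for 0 doses against young and 0 for 10 young cells. At a difference of 20 points it was 1.36 for young against fetal, 3.73 for 10 young, 5.93 for 10 old and 1.24 for 500 old cells.

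With the replicate number as a block, the share for 500 old cells was 2.05. It stayed within 1.5 times in the other comparisons, at 14.4 for 10 young and 19.3 for 10 old cells. Same-numbered libraries did not deviate together (correlations of -0.073 to 0.0544), so the numbers are not taken as pairs.

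Leaving out 1 library at a time, in each of the 25 ways, gave these ranges. The level of transplanted against untransplanted libraries differed by -5.52 to -4.80, of young-donor transplants by -5.47 to -3.84 (4 against 5 libraries cannot pass the adjusted threshold here), and of 2 against 0 doses by -0.92 to 0.269. The differences for sparse against matched tiles were 0.799 to 0.909 for all transplanted, 0.821 to 1.06 for young-donor transplants, -0.136 to 0.158 for 10 minus 500 cells and -0.24 to 0.0187 for 2 minus 0 doses. The share of called tiles ranged over 1.15 to 2.36 for young against fetal, 0.0243 to 1.36 for old against young, 0.0396 to 16.6 for 10 young, 0 to 7.76 for 10 old and 0 to 3.39 for 500 old cells. Without the second young library 2 tiles gained and 1 lost after 10 young cells, a reversed balance, with 0.0396% called. A lone library left in a group was assumed to vary like the other groups.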
